A study of Mus musculus with 4 samples.

Results

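The response of Bach2-deficient T helper (Th) cells to 4 h of re-stimulation through the T cell receptor (TCR) was read on 2 of the 4 arrays of the series, 1 array with re-stimulation and 1 without it, chosen by their titles. Both arrays held cells from spleens of C57BL/6J mice labelled Bach2 KO, which carry Bach2 flox/flox alleles and a CD4-Cre transgene, so that Cre, driven by Cd4 regulatory sequence, deletes the floxed segment in T cells. Naive CD4 T cells were activated for 2 days on anti-TCR-β at 3 μg/ml with anti-CD28 at 1 μg/ml and were then kept for 3 days with IL-2, at 2.5 ng/ml by the sample labels. They were taken on day 5 either as they were or after 4 h on immobilized anti-TCR-β without added IL-2. The WT pair of arrays was cultured and treated in the same way and is used here only for values side by side. How many mice gave the cells of an array, and their age, are not in the labels. The study's methods give the age only as a range for all its mice.

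Engagement of the TCR opens calcium channels and switches on the Ras, MAP kinase and NF-κB pathways, so that NFAT, AP-1 and NF-κB enter the nucleus and bind cytokine genes. Effector Th cells that meet antigen again turn these genes on within hours, together with a first wave of transcription factors and inhibitors that later limit the signal. Bach2 is a transcriptional repressor of the basic leucine zipper family, to which Batf and the AP-1 proteins also belong, and it is known for holding back effector and Th2 genes in T cells. Re-stimulation and the 4 h without added IL-2 came together in this design, and their effects cannot be told apart.

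With 1 array a side there was no replicate, and none of the differences was tested. A gene counted as measured if its probe passed the scanner software's flag of being well above background on either array, and a dim value was raised to the lowest signal well above background on its array, which was 16.8 before and 17.2 after re-stimulation. The difference is then a bound. Differences are log2 values, re-stimulated minus not, after each array was scaled to its own 75th percentile, so they are higher than the log2 ratios of the scanner signals printed here, by 0.30 on the KO arrays and by 0.48 on the WT arrays. The error measure used was the spread between different probes of a gene. Its median SD was 0.14 on the log2 scale over 3962 genes, and the 95th percentile was 0.68. Between spots of the same probe the median SD was 0.05 before and 0.06 after re-stimulation on the KO arrays. Neither spread covers differences between mice, cultures or hybridizations. In cells taken in bulk, fewer cells of a type and less RNA per cell cannot be told apart.

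The probe for the targeted gene, Bach2, gave signals of 2633 before and 3080 after re-stimulation on the KO arrays, and 2932 and 3310 on the WT arrays. Whether it lies in the deleted part is not given in the sources used here, so it does not check the genotype labels. All 4 arrays are labelled female, whereas the study's methods say that mice of both sexes were used in vitro. The Y-linked genes Ddx3y, Eif2s3y and Kdm5d passed that flag on both KO arrays, against the label. In WT cells they did not, and Uty passed it in neither. All 10 T cell markers, among them Cd3e, Cd3g, Lck and Cd4, passed it on both KO arrays, and none of them differed 2-fold. Their median log2 difference was -0.24, which became 0.01 when Cd3e itself was taken as the reference.

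Of 12394 genes measured in the Bach2-deficient Th cells, 1534 (12.4%) were at least 2-fold higher after re-stimulation and 1606 (13%) were at least 2-fold lower. The numbers on either side were close, and the sizes were not. Differences of at least 4-fold were found for 506 genes (4.08%) that were higher and 248 (2%) that were lower, and of at least 10-fold for 203 genes (1.64%) that were higher and 6 (0.0484%) that were lower. The median over all genes was 0.00, with a 5th percentile of -1.52 and a 95th of 1.75. Among genes well above background on both arrays, the largest rise was 12.54, for the chemokine gene Ccl1, and the largest fall was -4.61, for S1pr1, the receptor by which T cells leave lymphoid tissue. Of the genes past 2-fold, 370 that were higher and 143 that were lower were bounds.

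The split between higher and lower depended on the scaling. Genes that were higher made up 48.9% of those past 2-fold with the 75th percentile, 32.8% with the 8 spike-in controls, 30.8% with the array medians and 67.7% with Cd3e as the reference. The median of all genes moved by -0.23, -0.26 and 0.26 under those 3 settings. Each list of genes below is therefore given by its counts and its median, to be read against 12.4% and 13% and a median of 0.00 over all genes. Counts under another scaling are given for some of the lists.

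**Figure D1:**
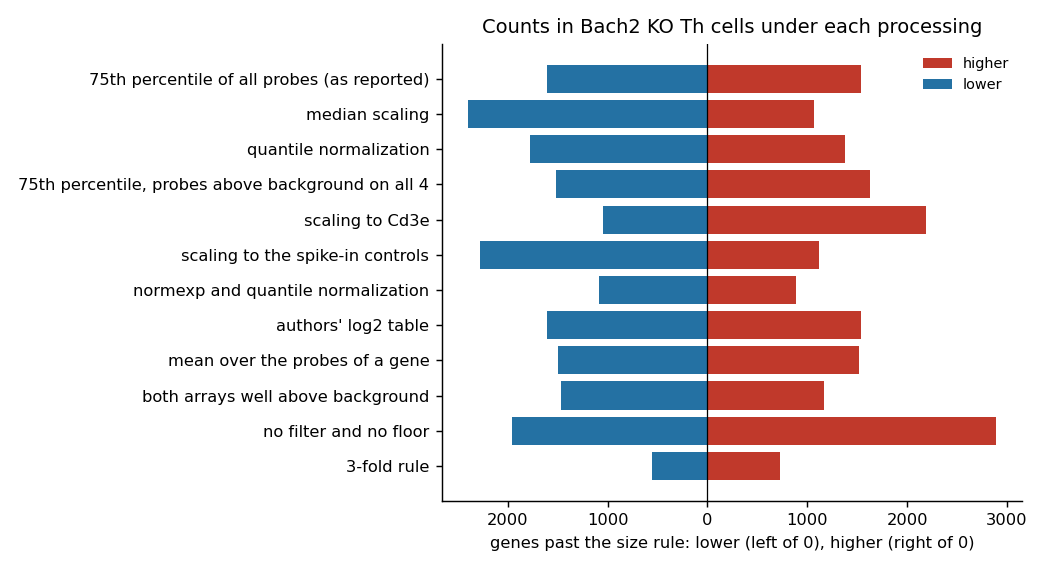
Number of genes at least 2-fold lower (blue, left of 0) and higher (red, right of 0) after re-stimulation in Bach2 KO Th cells under the reported processing and each alternative (at least 3-fold for the 3-fold rule). The bars for the reported processing reach 1606 and 1534; scaling to Cd3e gave 1043 and 2185, and scaling to the spike-in controls 2279 and 1112.

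**Figure D2:**
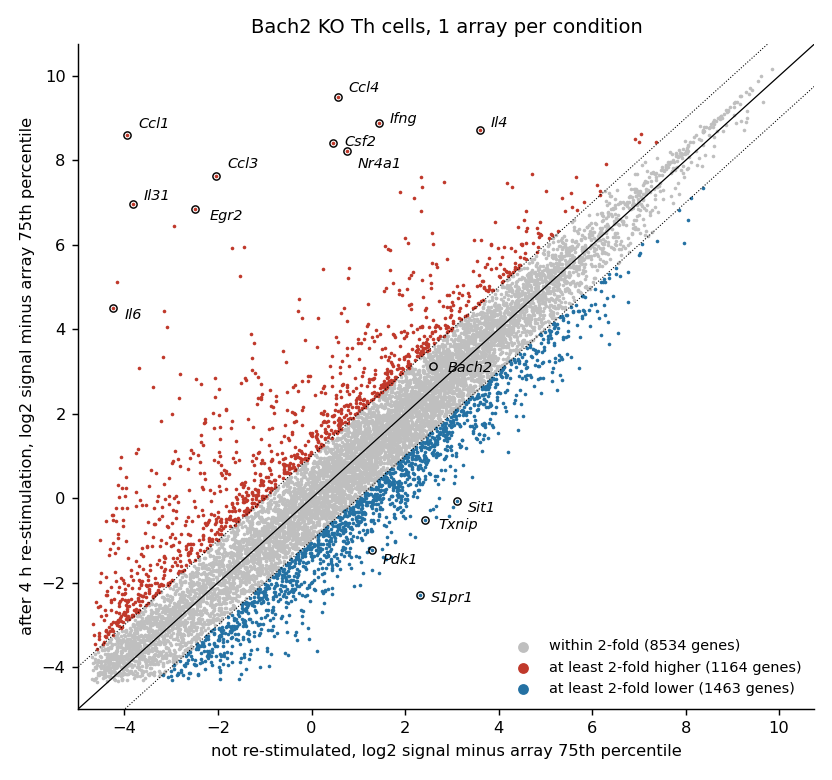
Log2 signal of each gene minus the array's 75th percentile, on the array without re-stimulation (x axis) and the array after 4 h of re-stimulation (y axis), for the 11161 genes well above background on both Bach2 KO arrays. Red and blue points are past 2-fold (dotted lines), 1164 higher and 1463 lower, and the circled genes are named in the text: the cytokine and chemokine genes lie far above the diagonal, whereas S1pr1, at -4.61, lies farthest below it.

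Cytokine genes made up many of the largest rises. Of 34 measured cytokine genes 25 were at least 2-fold higher and 2 were lower, with a median log2 difference of 3.56, and 12 of the 34 values were bounds. All 12 were well above background only after re-stimulation, so the filter set their direction. Of the 22 cytokine genes well above background on both arrays 13 were higher and 2 were lower, with a median of 2.77. Il3, which encodes a growth factor for mast cells and basophils, was not well above background before re-stimulation and gave a signal of 241780 after it. It was at least 17733-fold higher. Il2, the T cell growth factor, went from a signal not well above background to 33743, at least 2475-fold higher. Both genes were thus found only on the re-stimulated array.

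The Th2 cytokine genes were already well above background before re-stimulation. The signal of Il4, the cytokine that drives Th2 differentiation, was 5239 before and 148260 after re-stimulation, a log2 difference of 5.12. Il5, a growth factor for eosinophils, went from 329 to 2200, a difference of 3.04. Il13, which acts on airway epithelium, went from 104 to 2530, a difference of 4.91. These 3 genes therefore shared a direction and differed in size. On the WT arrays Il4 rose by 4.34 and Il13 by 4.48, from signals of 752 and 23.2, and Il5 was not well above background before re-stimulation.

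The rises were not limited to the Th2 cytokines. Ifng, the main Th1 cytokine, went from 1175 to 167600, a log2 difference of 7.46, and its other measured probe gave 8.79. Csf2, which encodes GM-CSF, went from 601 to 120690, a difference of 7.95. Tnf went from 1389 to 20871, a difference of 4.21. Il10, an anti-inflammatory cytokine, went from 378 to 6754, a difference of 4.46. Genes of several Th lineages were thus higher together on the re-stimulated array.

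Some cytokine genes came up from signals close to the background. Il31, a cytokine linked to itch, went from 30.7 to 44117, a log2 difference of 10.79, the second largest among genes well above background on both arrays. Il6, which promotes Th17 and follicular helper responses, went from 23.0 to 7938, a difference of 8.73. Its signal on the re-stimulated WT array was 85.4. Il21, a cytokine of follicular helper cells, was at least 34.4-fold higher, with a signal of 469 after re-stimulation. The cytokine genes that were lower were Il16, at -1.49, and Tgfb3, at -1.90.

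**Figure D3:**
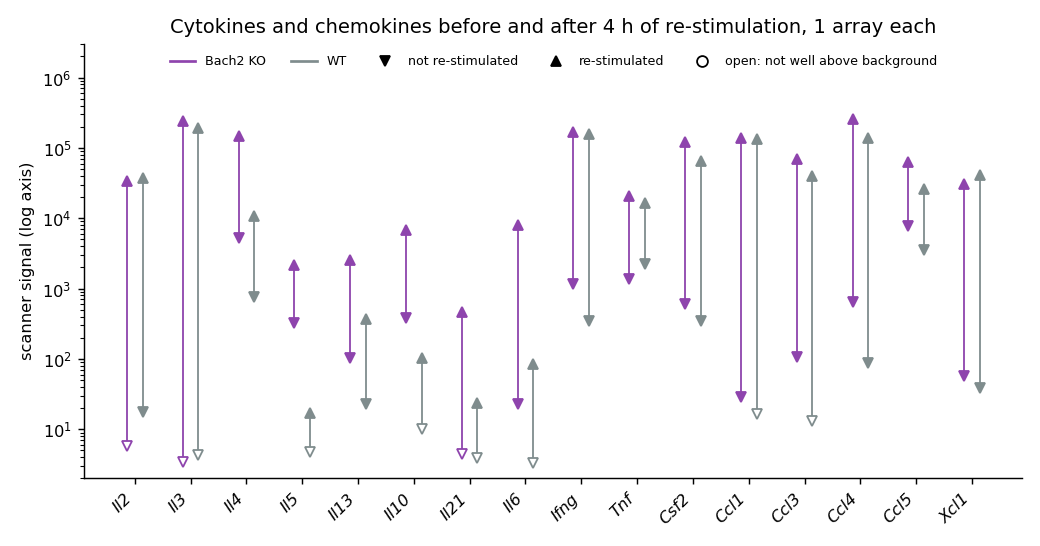
Scanner signal (log axis) of 16 cytokine and chemokine genes without re-stimulation (downward triangles) and after 4 h of re-stimulation (upward triangles), 1 array per condition, in Bach2 KO (purple) and WT (grey) Th cells. Open triangles mark signals not well above background; every gene shown was higher after re-stimulation, and Il3 in Bach2 KO cells ran from an open symbol to 241780.

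Chemokine genes followed the cytokine genes in size. Of 19 measured chemokine genes 15 were at least 2-fold higher and 0 were lower, with a median of 2.97, and 7 values were bounds. These 7 genes were well above background only after re-stimulation, so the filter set their direction. Of the 12 chemokine genes well above background on both arrays 8 were higher and 0 were lower, with a median of 3.73. Ccl1, which attracts cells carrying CCR8, went from 28.4 to 136840, a difference of 12.54. Ccl3, a chemokine of the CC family, went from 106 to 70342, a difference of 9.67, and Ccl4, of the same family, from 641 to 254790, a difference of 8.93. Xcl1, a ligand for a receptor of cross-presenting dendritic cells, went from 56.6 to 30561, a difference of 9.38. Ccl5 was well expressed before re-stimulation, with a signal of 7816, and went to 62593, a difference of 3.30. Chemokine genes with high and low starting signals were thus among those that were higher. With a background model that adds an offset (normexp), 10 of the 19 were higher and the median was 1.25, and the median of the cytokine genes was 2.32.

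Promoters of these genes are shown because NFAT and AP-1 are the textbook factors of this response. They were taken from RefSeq promoters of the GRCm38.p6 assembly, using the 250 bases before the start site of genes with a single promoter entry. Motifs were searched on both strands: AP-1 as TGAGTCA or TGACTCA, which are reverse complements of each other, the NFAT core as TGGAAA, and CRE as TGACGTCA. NF-κB was searched only as GGGACTTTC, GGGAATTTC or GGGGATTCC. The serum response element core was searched as CCATATTAG, CCTTATATG, CCATATATG or CCATATAAG. Variants of these letters, such as gggattttcc in the Il6 window, were not searched. Among the 5 genes with a single promoter entry and the largest rises, Ccl1, Il31, Ccl3, Xcl1 and Il6, only Ccl1 and Il6 held any of these letters. In the sequences the matching bases are in capitals. Ccl1 holds an NFAT core that starts 116 bases upstream, and Il6 holds AP-1 at 249 and an NFAT core at 109 bases upstream. The Ccl1 window is chr11:82179813-82180062 on the minus strand and the Il6 window is chr5:30012864-30013113 on the plus strand.
Ccl1: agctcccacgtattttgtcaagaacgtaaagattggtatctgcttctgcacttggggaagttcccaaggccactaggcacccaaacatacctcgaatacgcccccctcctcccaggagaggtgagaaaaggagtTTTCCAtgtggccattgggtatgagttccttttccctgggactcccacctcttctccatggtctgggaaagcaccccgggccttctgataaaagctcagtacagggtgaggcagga
Il6: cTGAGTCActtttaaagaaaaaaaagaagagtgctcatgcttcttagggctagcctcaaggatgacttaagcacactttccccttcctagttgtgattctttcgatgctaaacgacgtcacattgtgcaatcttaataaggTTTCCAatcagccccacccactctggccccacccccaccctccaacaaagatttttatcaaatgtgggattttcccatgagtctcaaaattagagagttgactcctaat

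Over the promoters that could be searched, the AP-1 letters were in 8.36% of 323 genes at least 4-fold higher, in 3.6% of 139 genes at least 4-fold lower and in 3.19% of 7895 genes measured. The NFAT core was in 24.5%, 8.63% and 15.1% of the same groups, and in 18.8% of all 22862 promoters. CRE was in 2.79% of the genes that were higher, in 0% of those lower and in 2.81% of those measured. The NF-κB letters were in 2.17%, 0% and 0.988% of the same groups. Those of the serum response element core were in 0.619%, 0% and 0.342%. These shares are a description of letters in short windows and were not tested.

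The first wave of transcription factors is given next. Of 28 early response factors 18 were at least 2-fold higher and 1 was lower, with a median of 1.90. Of the 24 well above background on both arrays 14 were higher and 1 was lower, with a median of 1.29. Egr2, a zinc finger factor induced by calcium and MAP kinase signals, went from 77.6 to 40631, a log2 difference of 9.33. The orphan nuclear receptor genes Nr4a1, Nr4a2 and Nr4a3, induced by TCR signals, differed by 7.46, 6.52 and at least 4.21. Egr1 went from 178 to 5232, a difference of 5.17, and Egr3 was at least 7.16-fold higher. Junb, an AP-1 subunit and partner of Batf, went from 21937 to 68899, a difference of 1.95. Id1, an inhibitor of helix-loop-helix factors, was the 1 gene that was lower, at -1.14.

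Of 19 measured genes of the Batf, Irf, Bach and Maf families, 10 were at least 2-fold higher and 0 were lower, with a median of 1.02. Batf, which pairs with Jun proteins and Irf4 in Th2, Th17 and follicular helper cells, went from 9715 to 22868, a difference of 1.53. Irf4, its partner, went from 414 to 2433, a difference of 2.86, and Batf3 from 2067 to 5702, a difference of 1.76. Batf2 went from 52.6 to 369, a difference of 3.11. The probe for Bach2 itself differed by 0.53 and did not reach 2-fold. Of the 10 genes 5 lay between 1.02 and 1.05, and with the spike-in controls or the array medians as the reference 5 of 19 were at least 2-fold higher.

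Among 26 measured regulators of Th lineages, 11 were at least 2-fold higher and 1 was lower, with a median of 0.69, and 7 were higher with the array medians. Bcl6, which directs follicular helper cells, went from 180 to 3537, a difference of 4.60. Tbx21, the Th1 factor T-bet, went from 1796 to 10884, a difference of 2.90. Gata3, the main Th2 factor, had signals of 16740 and 15319. Its difference of 0.17 was -0.06 with the spike-in controls and -0.09 with the array medians. Stat6, which carries the IL-4 signal, differed by 0.49, and Foxp3, the factor of regulatory T cells, was not well above background on either array. Zbtb32, a repressor of cytokine genes in activated T cells, differed by 3.41, and Zbtb7b, which keeps T cells in the CD4 lineage, was the 1 gene that was lower, at -1.58.

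Genes that feed back on TCR signals are given in 2 groups. Of 25 measured NF-κB subunits and inhibitors 15 were at least 2-fold higher and 1 was lower, with a median of 1.41. Tnfaip3, which encodes the inhibitor A20, went from 299 to 3293, a difference of 3.76. Nfkbia, which encodes IκBα, went from 8466 to 58702, a difference of 3.09, and the subunit genes Nfkb2 and Relb differed by 3.00 and 2.75. NF-κB inhibitors and subunits were thus higher together. The probe for Rel was not well above background on either array.

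Of 33 measured inhibitors of MAP kinase, calcineurin and TCR signals, 13 were higher and 6 were lower, with a median of 0.46. The G protein regulator Rgs16 went from 159 to 21824, a difference of 7.40, and Rgs2 from 358 to 7583, a difference of 4.70. The phosphatase genes Dusp4 and Dusp2 differed by 4.47 and 2.96, and Spry1 by 2.82. Dusp6 was at 20673 before and 19200 after re-stimulation. The adaptor gene Sit1, a negative regulator at the membrane, went from 3767 to 337, a difference of -3.18. Ptpn6, which encodes the phosphatase SHP-1, and the adaptor gene Sla2 differed by -1.64 and -2.12.

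Cytokine receptors and SOCS genes showed no shared direction. Of 33 measured genes 5 were higher and 6 were lower, and their median of 0.15 was -0.08 with the spike-in controls and -0.11 with the array medians, under which 3 and 2 genes were higher. Ifngr1, a chain of the interferon-γ receptor, went from 40942 to 5336, a difference of -2.64. On the WT arrays it went from 52070 to 21562, a difference of -0.79. Socs2 and Socs1, targets of STAT5 and other STAT proteins, differed by -2.16 and -1.23, and Il4ra, the IL-4 receptor chain, by -1.20. Cish was at 34785 and 32007. Il2ra differed by 0.58, and its other measured probe gave -0.24. The decoy receptor gene Il1r2 went from 341 to 2278, a difference of 3.04, and Il1r1 was at least 17.0-fold higher. Receptor genes for IL-1 were thus higher, and a receptor gene for interferon-γ was lower.

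Costimulatory and inhibitory receptors were higher more often than lower. Of 27 measured genes 15 were at least 2-fold higher and 2 were lower, with a median of 1.36. Pdcd1, which encodes PD-1, went from 747 to 13132, a difference of 4.44. Havcr2, which encodes TIM-3, went from 1290 to 21961, a difference of 4.39, and Lag3 from 255 to 1734, a difference of 3.06. Cd200, a ligand that restrains myeloid cells, had the largest rise of the list, from 25.9 to 697 or 5.05. Ctla4 differed by 3.24 and the activation marker Cd69 by 1.68. The counts held both inhibitory receptors and activation markers. Icos, at 31998 and 20809, differed by -0.32, and the genes that were lower were Cd226, at -1.71, and Lair1, at -2.42.

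Of 25 measured genes of the TNF superfamily 14 were higher and 1 was lower, with a median of 1.15, and 3 were lower with the array medians or the spike-in controls. Tnfsf11, which encodes RANKL, went from 60.8 to 1826, a difference of 5.21, and Tnfsf14, which encodes LIGHT, from 1977 to 48679, a difference of 4.92. Cd40lg, the helper signal to B cells, went from 24.8 to 440, a difference of 4.45. The death ligand gene Fasl differed by 2.45. Of the receptors, Tnfrsf9 (4-1BB) and Tnfrsf4 (OX40) differed by 2.16 and 1.57, and Tnfrsf18 (GITR), at 114020 and 78580, by -0.24, which was 0.02 with Cd3e as the reference. By the probes used, the ligands named here were higher by more than the receptors named here. Another measured probe gave 1.98 for Fasl and 1.78 for Tnfrsf9. That order did not hold for every ligand, as Lta and Ltb, listed with the cytokines, differed by 0.45 and -0.36. Tnfrsf1a was lower, at -1.10.

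**Figure D4:**
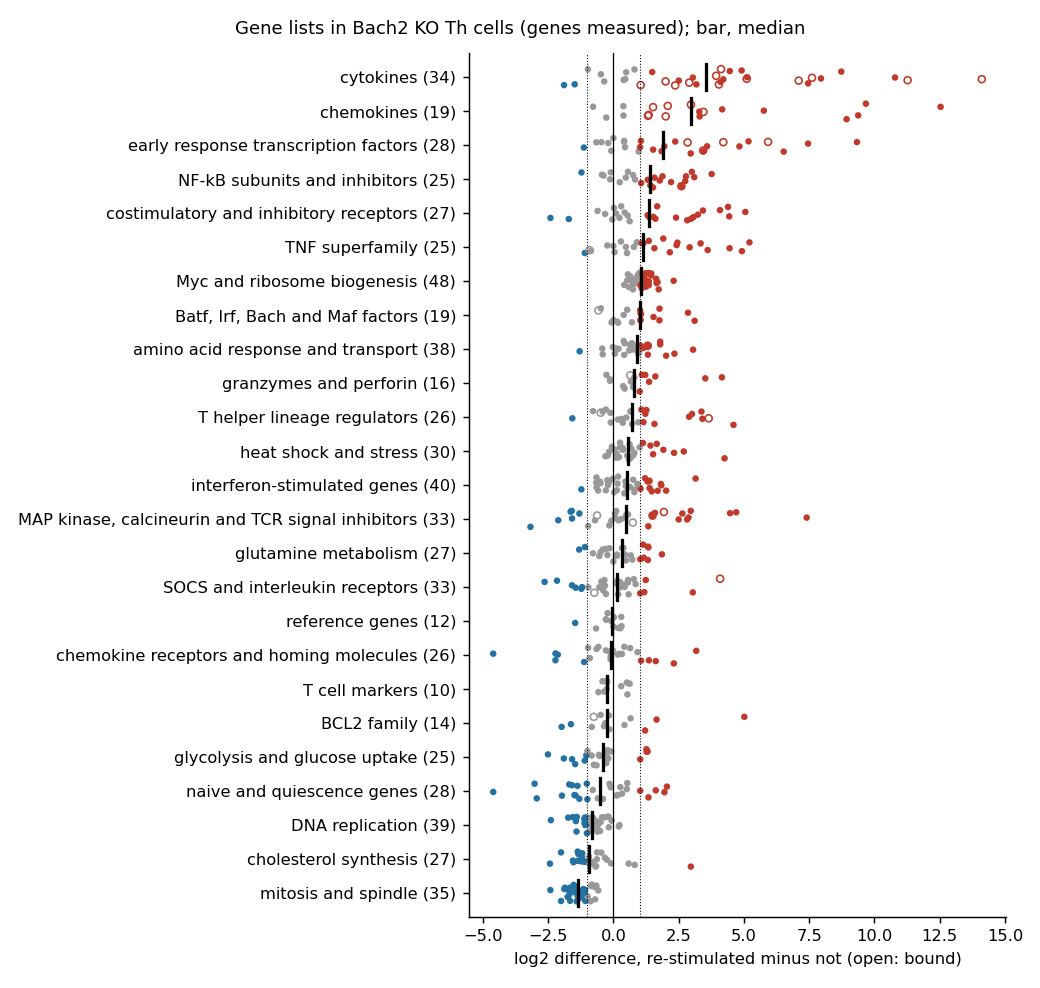
Log2 difference (re-stimulated minus not) of each measured gene, by list, in Bach2 KO Th cells, for the 25 lists with at least 10 measured genes (numbers in brackets). Red and blue mark genes at least 2-fold higher and lower, open points are bounds and black bars are medians; the medians ran from 3.56 for cytokines to -1.36 for mitosis and spindle genes.

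Homing molecules were split. Of 26 measured chemokine receptors and homing molecules 5 were higher and 5 were lower, and the median of -0.11 was 0.15 with Cd3e as the reference. S1pr1 went from 2166 to 72.1, a difference of -4.61, beside -2.47 on the WT arrays. S1pr4, another receptor for sphingosine 1-phosphate, went from 2087 to 363, a difference of -2.22. Sphk1, which encodes a kinase that makes this lipid, went from 24.3 to 12185, a difference of 9.27. The lipid's kinase gene was thus among the largest rises while receptors for it were lower. Ccr7, which guides T cells into lymph nodes, differed by 1.62, the Th1 receptor gene Cxcr3 by 1.06, and the Th2 receptor genes Ccr4 and Ccr8 by -0.65 and 0.92. Ccr3, the eotaxin receptor, went from 23.0 to 169, a difference of 3.17.

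Genes of naive and resting T cells were lower more often than higher. Of 28 measured genes 12 were at least 2-fold lower and 5 were higher, with a median of -0.50. Txnip, an inhibitor of glucose uptake, went from 2348 to 248, a difference of -2.94, and its other measured probe gave -1.19. Pik3ip1, an inhibitor of PI3 kinase, went from 1301 to 130, a difference of -3.02. The naive T cell factor genes Lef1 and Tcf7 differed by -1.31 and -1.02. Klf2, the factor that drives S1pr1, was at 39587 and 34768, a difference of 0.11. Its other measured probe gave -3.24, and the mean over its probes was -1.56. The antiproliferative gene Btg1 and the quiescence gene Slfn2 were among those that were higher, by 2.05 and 1.95. On the WT arrays 6 of 28 were lower and 5 were higher, with a median of -0.31.

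Of 35 mitosis and spindle genes 27 were at least 2-fold lower and 0 were higher, with a median of -1.36, and all 35 differences were below 0. Mki67, the marker of cycling cells, went from 31587 to 10493, a difference of -1.29. Plk1 and Top2a differed by -1.30 and -1.76, and Cdk1 and Ccnb1, the pair that starts mitosis, by -0.86 and -0.88. The largest fall was that of Cdc25b, a phosphatase that activates Cdk1, from 13009 to 1976 or -2.42. Of 39 DNA replication genes 14 were lower and 0 were higher, with a median of -0.82. The number that were lower was 22 with the spike-in controls, 24 with the array medians and 6 with Cd3e as the reference. E2f2, an S phase factor, went from 17275 to 2662, a difference of -2.40, whereas Ccne2 differed by -0.07. The median of the mitotic genes was thus further below 0 than that of the replication genes.

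Ribosome biogenesis genes went the other way. Of 48 genes of this list 25 were at least 2-fold higher and 0 were lower, with a median of 1.04, and every one of the 48 differences lay between 0.41 and 2.30. Myc, the factor that drives growth, went from 5351 to 9006, a difference of 1.05. Odc1, its target in polyamine synthesis, went from 55381 to 122960, a difference of 1.45, and the nucleolar genes Fbl and Ncl differed by 1.07 and 0.82. Noc3l had the largest rise, from 295 to 1182 or 2.30. The list moved as a narrow band close to the 2-fold line, so its count was 10 with the array medians, 14 with the spike-in controls and 39 with Cd3e as the reference.

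Metabolic genes differed by pathway. Of 38 measured genes of the amino acid response and transport 15 were higher and 1 was lower, with a median of 0.89. Asns, which makes asparagine, went from 10649 to 29911, a difference of 1.79, the transporter gene Slc7a3 from 238 to 1602, a difference of 3.05, and Slc7a5 and Slc3a2, the chains of a leucine transporter, differed by 1.10 and 1.32. Of 27 measured glutamine genes 7 were higher and 2 were lower, with a median of 0.34. The transaminase gene Gpt2 differed by 1.85 and the transporter gene Slc1a5 by 1.32. Those that were lower were Me2 and Idh2, mitochondrial dehydrogenases. With the array medians or the spike-in controls 10 amino acid and 4 glutamine genes were higher, and with Cd3e as the reference 23 amino acid genes were.

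Of 25 glycolysis genes 4 were higher and 6 were lower, with a median of -0.40. Hk2 and Pfkfb3, which raise the flux into glycolysis, differed by 1.27 and 1.26. Ldha, at 107410 and 82453, differed by -0.08 and Slc2a1, the glucose transporter, by -0.29. Pdk1, which keeps pyruvate out of mitochondria, went from 1064 to 151, a difference of -2.51, and the lactate exporter gene Slc16a3 from 26570 to 7797, a difference of -1.47. The members of this pathway had no shared direction, and with the array medians 2 were higher and 9 were lower.

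Of 27 genes of cholesterol synthesis and its control 13 were at least 2-fold lower and 1 was higher, with a median of -0.94, and 7 were lower with Cd3e as the reference. Dhcr7, which makes cholesterol in the last step, went from 8997 to 1352, a difference of -2.43. Hmgcs1, at the start of the pathway, went from 24055 to 6740, a difference of -1.54. Abca1, which exports cholesterol, was the 1 gene that was higher, at 2.96. Abcg1, another export gene of the list, went from 1459 to 403, a difference of -1.55. On the WT arrays 18 of 27 were lower, with a median of -1.77, Dhcr7 differed by -3.44 and Hmgcs1 by -2.83. The signals of these genes before re-stimulation were lower in Bach2-deficient than in WT cells for Dhcr7 (8997 and 12073) and Hmgcs1 (24055 and 35893).

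Of 40 interferon-stimulated genes 13 were at least 2-fold higher and 1 was lower, with a median of 0.51. Ifih1, an RNA sensor, went from 638 to 4592, a difference of 3.15. Isg15, a ubiquitin-like protein, went from 9259 to 30454, a difference of 2.02, and Rsad2, an antiviral enzyme, from 628 to 1819, a difference of 1.83. Ifit3 went from 1241 to 2027, a difference of 1.01. On the WT arrays 29 of 40 were higher and 0 were lower, with a median of 2.01. Isg15 went there from 1421 to 13182, Rsad2 from 41.2 to 623 and Ifit3 from 192 to 3400. For these 3 genes the signal before re-stimulation was higher on the Bach2-deficient than on the WT array.

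Smaller groups gave the following values. Of 16 genes of granzymes, perforin and their inhibitors 7 were higher and 0 were lower, with a median of 0.77, and 4 were higher with the spike-in controls. The granzyme B inhibitor genes Serpinb6b and Serpinb9 differed by 4.15 and 3.52, Prf1, which encodes perforin, by 1.22, and Gzmb, at 125470 and 132060, by 0.37. In the BCL2 family 3 of 14 were higher and 2 were lower, and 4 were lower with the array medians. The survival gene Bcl2a1b went from 2222 to 58319, a difference of 5.01, and Bcl2 itself from 16077 to 3296, a difference of -1.99. These 2 survival genes thus went in opposite directions. The other members past 2-fold were Bcl2l1 and Bcl2l11, at 1.65 and 1.21, and Bbc3, at -1.63. Of 30 measured stress genes 8 were higher and 0 were lower, with a median of 0.56. Gadd45b, which activates p38 signalling, differed by 4.26, the haem oxygenase gene Hmox1 by 2.69 and the chaperone gene Hspa5 by 1.66.

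Other genes among the 15 largest rises or the 5 largest upward bounds belong to none of these lists. Crtam, an adhesion receptor of activated T cells, went from 134 to 21525, a difference of 7.63. Pdzk1ip1 went from 48.9 to 7650, a difference of 7.59. Mpzl2, an adhesion protein, went from 51.3 to 5889, a difference of 7.14, and its other measured probe gave 3.80. Inhba, a subunit of activin, Bdh2 and Mst1r, the receptor for macrophage-stimulating protein, were not well above background before re-stimulation and were at least 1386-fold, 747-fold and 614-fold higher. These genes reached sizes like those of the cytokines.

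The largest falls were smaller than the largest rises. After S1pr1 came Tbxa2r, the thromboxane receptor, from 3341 to 263 or -3.37, and Rasgrp2, an activator of Rap1 in integrin signalling, from 416 to 34.9 or -3.28. Cyp2s1, Lzts2, Mogat2, Tlr1, Pimreg, Mctp1, Depdc1b, Hemgn, Thra, Itga7 and Cnr2 lay between -3.22 and -3.06. Hemgn was read by 2 probes that gave -3.08 and -0.63. The probes standing for Crtac1, Lrrc75b, Ripor2, Extl1 and Abhd15 were not well above background after re-stimulation. By these probes the genes were at least 24.0-fold, 13.4-fold, 11.7-fold, 9.32-fold and 7.48-fold lower. Another probe of Ripor2 was well above background on both arrays and gave -2.58. The falls thus held membrane receptors, signalling proteins and mitotic genes such as Pimreg and Depdc1b.

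How far a value rests on its probe was seen in genes with several probes. Of 334 genes at least 2-fold higher that had 2 or more measured probes, every probe was past 2-fold in 235, and in 12 some probe was lower after re-stimulation. Of 442 such genes that were lower, every probe was past 2-fold in 291, and in 20 some probe was higher.

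Markers of other cells were measured beside these results. Of 11 mast cell and basophil markers on the array 8 were well above background before and 8 after re-stimulation, with summed signals of 1518 and 2144, whereas 3 and 2 were so on the WT arrays, with sums of 254 and 490. Cpa3, Mcpt8 and Prss34 had signals of 339, 309 and 293 before and 195, 333 and 244 after re-stimulation, and Ms4a2 was not well above background. Hdc, which makes histamine, and Cd200r3 were the markers that were at least 2-fold higher, by 2.18 and 2.38. The other measured probe of Cd200r3 gave -0.39, and with the mean over probes 1 marker was at least 2-fold higher. Basophils and mast cells also make Il4, Il6 and Il13, and the part of these cells in those values was not tested.

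Of 7 myeloid markers on the array 3 were well above background before and 2 after re-stimulation, with summed signals of 513 and 563, and Lyz2 and Csf1r were not well above background on either array. Mpeg1 went from 49.6 to 347, a difference of 3.11, and Adgre1 from 410 to 160. Of 6 B cell markers 2 were well above background on each array, with sums of 606 and 208, and Cd79a and Ms4a1 were not. Of 5 NK cell markers 2 were so, with sums of 475 and 216. Cd8a was at least 4.62-fold higher, with a signal of 63.0 after re-stimulation. Of 4 dendritic cell markers 1 was well above background before and 2 after, with sums of 92.2 and 143. The erythroid gene Hba-a1 was at 1505 and 1010. The part of such cells in the differences was not tested.

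Of 12 reference genes 0 were higher and 1, the tubulin gene Tubb5, was lower, at -1.47. Their median of -0.04 was 0.21 with Cd3e as the reference. Actb, Hprt and Gapdh differed by 0.31, -0.29 and -0.27.

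Set beside the WT pair, the responses were close in most genes. Across 10810 genes well above background on all 4 arrays, Pearson's r between the responses was 0.90 and Spearman's rho 0.89, as a description over genes that share their arrays and scaling. The median absolute difference between the responses was 0.19, and 95.2% of genes lay within 1 on the log2 scale. Of 1389 genes at least 2-fold higher in Bach2-deficient cells that were also measured in WT cells, 1077 were at least 2-fold higher there, and of 1556 that were lower 1129 were lower there. In WT cells 1630 (13.2%) of 12388 measured genes were higher and 1673 (13.5%) were lower. The response of the Bach2-deficient cells was below that of WT cells in 50.5% of the 10810 genes.

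Values of some lists are given beside that share. The response of Bach2-deficient cells was below that of WT cells in 38 of 39 interferon-stimulated genes, by a median of -1.41, and in 33 of 35 mitosis genes, by a median of -0.35. It was above that of WT cells in 23 of 26 cholesterol genes, by a median of 0.79. In ribosome biogenesis genes the median difference was -0.07 over 48 genes. These values depended on the scaling, as a comparison under the other scalings, added after the data were seen, showed. With the spike-in controls the response of Bach2-deficient cells was below that of WT cells in 14.4% of the 10810 genes. The median difference over all 10810 genes was then 0.36. The response was below that of WT cells in 35 of 39 interferon-stimulated genes, by a median of -1.05. It was below in 16 of 35 mitosis genes, with a median of 0.01. In ribosome biogenesis genes it was below in 1 of 48, with a median of 0.29. The mitosis and ribosome medians were thus both under the 0.36 of all genes. The response was above that of WT cells in 24 of 26 cholesterol genes, by a median of 1.15. With the 4 scalings other than these, the mitosis count stayed at 33 of 35. The pairs of arrays also differed in the Y-linked and mast cell genes described here, and whether the responses differ between genotypes could not be tested with 1 array per condition.

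**Figure D5:**
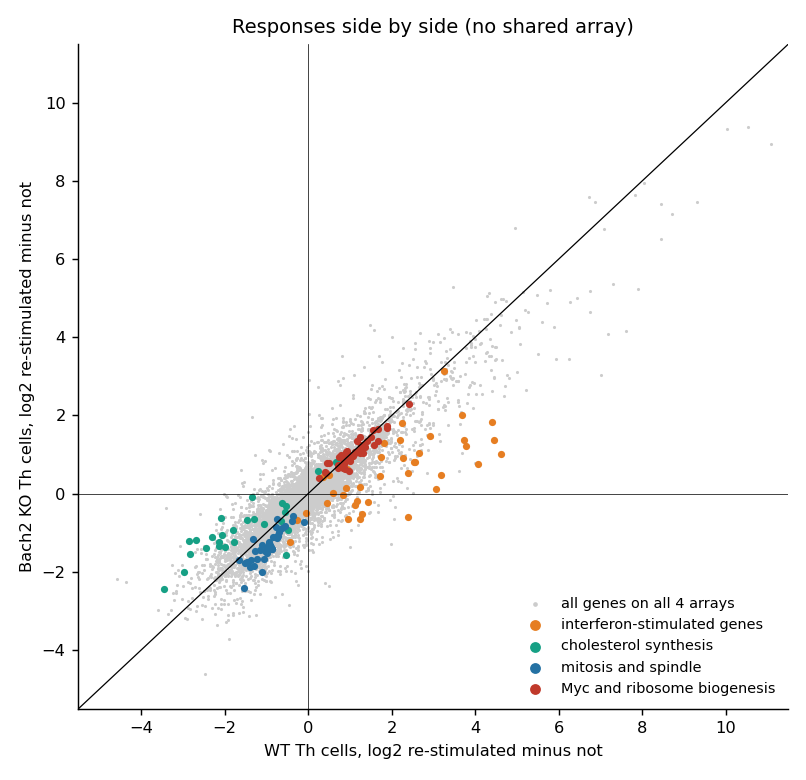
Response (log2, re-stimulated minus not) of WT Th cells (x axis) and of Bach2 KO Th cells (y axis), which share no array, for 10810 genes well above background on all 4 arrays, with the line of equal responses. Interferon-stimulated genes (orange) lie below the line in 38 of 39 cases and cholesterol genes (green) above it in 23 of 26. Mitosis genes (blue) lie below it in 33 of 35, and ribosome biogenesis genes (red) close to it. With the spike-in controls as the reference, 9250 of all 10810 genes would lie above the line. Under that scaling 47 of 48 ribosome biogenesis genes would lie above it and 16 of 35 mitosis genes below it.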

How the data were processed

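One-colour Agilent whole mouse genome arrays had been hybridized with Cy3-labelled total RNA. The authors deposited the intensity of each spot as written by Feature Extraction 10.7.3.1, with its flags, and a log2 table per probe. On each array that log2 table lies within 0.01 of the log2 intensity less the 75th percentile for at least 41001 of 41173 probes. The study's methods name no step of array processing.

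Control spots and between 107 and 120 outlier spots per array were left out, no spot was saturated, and log2 intensities were averaged within a probe. The 75th percentile, 434 and 353 on the KO arrays, was subtracted. Transcript accessions tied 27479 of 41173 probes (66.7%) to 18749 RefSeq genes (GRCm38.p6), and the brightest probe on average over the 4 arrays stood for its gene. Between 53.6% and 54.0% of probes passed the flag for being well above background. A gene whose bright side did not exceed the floor was measured but given no difference (112 genes). No test was made: 2-fold is a rule of size, and having 1 array per condition limits the precision.

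The members and the 33 gene lists were chosen with earlier results of these data known. Named genes are the 15 largest rises and falls, the 5 largest bounds each way, 5 genes opposite to WT, Bach2, Cd3e, and the preset and 3 most changed members of each list. Predicted genes were counted and not named, and some list members are counted but not reported here by name. Alternatives were 5 other scalings, normexp background correction (offset 50) with quantile normalization, the authors' log2 table, the mean over probes, a filter on both arrays, neither filter nor floor, and a 3-fold rule. The scripts were tested on simulated data. Software was Python 3.11.15 (numpy 2.4.6, pandas 2.3.3, matplotlib 3.10.9) and limma 3.58.1 in R 4.3.3. ChIP-seq was not analysed here.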

Additional observations from a re-analysis of the deposited data

Results flagged for a closer look

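Among the 8 genes past 2-fold in both genotypes in opposite directions, 5 are named here, and none of these differences between genotypes was tested. Trim9, at 32.7 before and 103 after re-stimulation, was 1.96 in Bach2-deficient and -1.33 in WT cells. Klrb1f, at 59.9 and 20.0, was -1.28 and 1.98. These 2 genes were well above background on all 4 arrays. Cryba4 was 2.54 in Bach2-deficient and at most -1.34 in WT cells, Vangl1 at most -2.06 and 1.27, and Pcp4 at most -1.22 and at least 2.83. The highest signal of these 5 genes on any array was 408, for Cryba4.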

How the results depend on the processing

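The counts of 1534 genes higher and 1606 lower, and the share of 48.9% higher, were recomputed under 11 alternatives. With Cd3e as the reference 1043 genes were lower, 2185 were higher and the share was 67.7%. With the array medians 1064 were higher, 2395 were lower and the share was 30.8%, and with the spike-in controls 1112, 2279 and 32.8%. With normexp and quantile normalization 884 were higher and 1086 lower. Without a filter or floor 2890 were higher, 1953 lower, with a share of 59.7%. The 3-fold rule left 723 and 558. Relative to the median gene, between 1502 and 1527 genes were higher and between 1613 and 1639 lower under the 75th percentile and the 5 other scalings. Of 2879 values of lists and named genes under the alternatives, 1160 moved by more than 0.14, the median spread between probes. List medians changed sign for SOCS genes and interleukin receptors, homing molecules, the BCL2 family, T cell markers, reference genes, Y-linked genes and B cell, NK cell and myeloid markers. Signals near 17 limit the dim genes. No paired analysis was possible because each condition has 1 array.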
